A study of Homo sapiens with 8 samples.

Results

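The genes that copy DNA in S phase, 41 in all, were followed in RNA-seq libraries of ESO26, an established line of oesophageal adenocarcinoma cells. They were taken as a named list (origin licensing factors, helicase activators, polymerases, clamp and clamp loader, enzymes of deoxynucleotide supply, and regulators of S-phase entry), and all 41 were among the 30755 gene symbols of the expression table and among the 15577 genes tested. The libraries were 2 from cells in which HNF4A, a nuclear receptor-type transcription factor of endodermal tissues, was lowered with siRNA and 2 from control cells, all of the same line grown in the same medium. The labels name neither the siRNA sequences, nor the treatment of the control cells, nor the time of harvest. The series also holds ChIP-seq and 4C libraries of this line, which were not used for these genes.

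Replication is prepared in G1, when the origin recognition complex (ORC) with CDC6 and CDT1 loads the ring-shaped MCM helicase onto DNA. At the start of S phase the kinase CDC7 and cyclin-dependent kinases help CDC45 and the GINS complex join the helicase, after which polymerase alpha-primase starts each strand, polymerase epsilon and polymerase delta extend them, and the RFC complex loads the sliding clamp PCNA. Many of these genes are textbook targets of the E2F transcription factors, which are held back by the RB family until cyclin-dependent kinases release them.

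The knockdown was checked first. HNF4A had 4129 and 3937 normalized counts in the control libraries and 1140 and 932 in the siHNF4A libraries, so the knockdown mean was 25.7% of the control mean. Normalized counts summed to between 17912507 and 18613685 per library, and between 4260 and 5640 genes were listed at 0. The absolute read depth is unknown, so no counting intervals are given. The epithelial markers EPCAM, CDH1, KRT8, KRT18 and KRT19 summed to between 69099 and 78607 normalized counts per library; KRT18, KRT8 and EPCAM fell and KRT19 rose. Of 14 markers of blood, endothelial, stromal and squamous cells, 9 had a row, and these summed to between 217 and 382, with the leukocyte marker PTPRC at 0 to 2.05. Among them VWF (8.55 and 6.68 in control, 47.5 and 36.4 in siHNF4A) and KRT14 (0.637 and 2.29 in control, 12.2 and 25.7 in siHNF4A) rose in the knockdown. The endothelial marker CDH5 (16.0 and 8.48 in control, 16.5 and 10.7 in siHNF4A) overlapped between groups, and the squamous keratin KRT5 (32.6 and 12.1 in control, 6.14 and 10.5 in siHNF4A) was lower in both knockdown libraries and not called. The part of these markers in the results below was not tested.

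Of the 41 replication genes 6 changed at an adjusted p under 0.05 in limma: POLA1, RFC3, MCM6, SLBP and MCM4 fell and POLE rose. This was 14.6% of the list, near the 14.1% of all genes tested that were called. By direction, 5 of 41 were called lower, against 8.11% of all genes tested, and 1 of 41 higher, against 6.02%. The fitted log2 fold changes of the 41 genes lay between -0.49 and 0.51 with a median of -0.07, beside a median of -0.01 over all genes tested. They were below 0 for 27 genes, or 65.9%, against 51% of all genes tested, and above 0 for 14. Under the other scalings tried 24 to 26 genes were below 0 and the median lay between -0.055 and -0.031. With a mean of at least 50, which all 41 genes reach, 7 of the 41 were called, beside 19.7% of all genes tested. The 14.1% above includes genes of lower counts than any of the 41. Without siHNF4A replicate 2 the call held for 3 of the 41 (POLA1, POLE and RFC3), where 6.5% of all genes tested were called, and with no filter on low values for 2 (POLA1 and POLE), where 2.4% were. In a bulk library, fewer cells in S phase and less mRNA in each such cell cannot be told apart. The summed normalized counts of the 41 genes were 66630 and 67083 in control and 64206 and 61507 in siHNF4A, which is 0.366% and 0.360% of all normalized counts in control and 0.358% and 0.343% in siHNF4A.

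**Figure D1:**
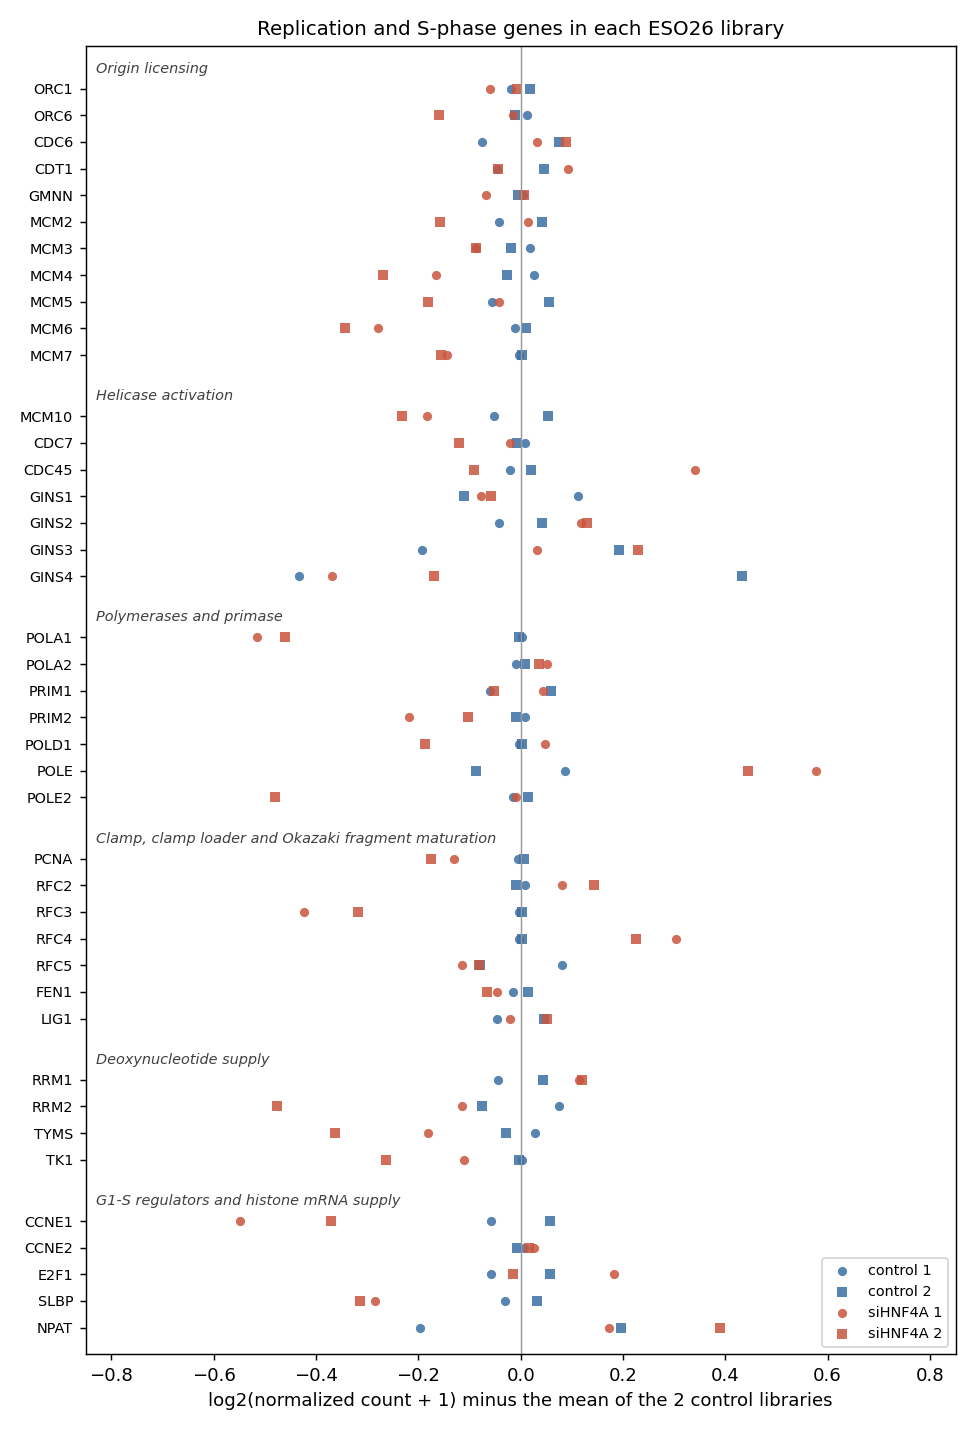
Each row is 1 replication gene and each point 1 library, plotted as log2(normalized count + 1) minus the mean of the 2 control libraries, with genes ordered by role (blue, control; red, siHNF4A; circles, replicate 1; squares, replicate 2). POLE stands to the right of both control libraries and POLA1, RFC3, MCM6 and SLBP to the left, while 23 of the 41 genes lie within 0.2 of the control mean in every library.

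The groups did not overlap for 25 of the 41 genes, or 61%, against 57.0% of all genes tested. The knockdown libraries were both lower for 18 genes, against 30.1% of all genes tested with that order, and both higher for 7, against 26.9%. For 1 gene in 2 against 2 libraries, the smallest p of an exact permutation test (two-sided) is 0.333, and the adjusted p-values borrow the variances that limma shares across genes. Of the 35 genes that were not called, 29 had a 95% interval of the log2 fold change that lay within 0.5 on either side of 0. The intervals of CCNE1, GINS4, NPAT, POLE2, RFC4 and RRM2 reached beyond 0.5. At an unadjusted p under 0.05, 8 of the 35 differed, 7 of them lower (MCM7, MCM10, PCNA, RRM2, TYMS, TK1 and CCNE1) and 1 higher (RFC4). Of all genes tested that were not called, 17.2% had such a p, 9.28% lower and 7.93% higher.

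**Figure D2:**
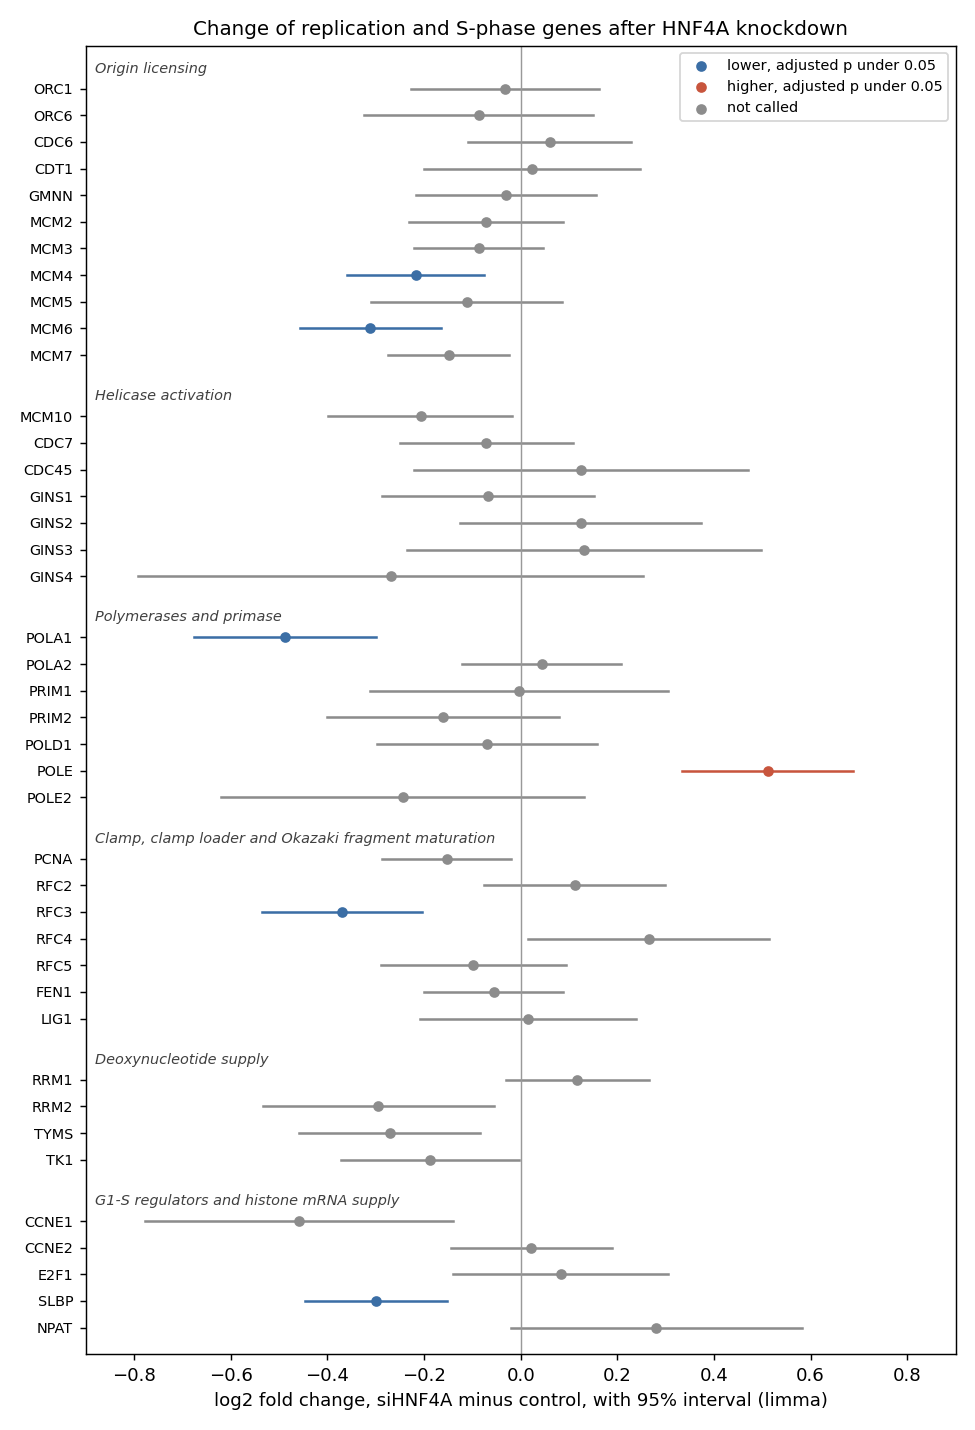
Points give the log2 fold change of each replication gene, siHNF4A minus control, and bars its 95% interval in limma, coloured where the adjusted p was under 0.05 (blue, lower; red, higher; grey, not called). Colour marks 5 genes on the left and POLE on the right, and the grey intervals are widest for GINS4, POLE2 and GINS3.

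The 250 bases before the transcription start are shown for the called genes whose promoter was in the RefSeq table (GRCh38.p14), with E2F1, itself an E2F-regulated gene that was not called, for comparison. They are printed 5′ to 3′ on the strand of the gene. Capitals mark matches, on either strand, to TTTCCCGC, TTTGGCGC, TTTCGCGC or TTTGCCGC, which are forms of the E2F recognition sequence. Where 2 matches overlap, their capitals run together.
MCM6, chr2:135876444-135876693, minus strand: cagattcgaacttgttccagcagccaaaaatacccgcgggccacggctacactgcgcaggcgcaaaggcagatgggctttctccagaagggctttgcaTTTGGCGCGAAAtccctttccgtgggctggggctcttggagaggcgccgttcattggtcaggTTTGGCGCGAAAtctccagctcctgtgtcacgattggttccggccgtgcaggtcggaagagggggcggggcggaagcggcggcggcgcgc
POLA1, chrX:24693668-24693917, plus strand: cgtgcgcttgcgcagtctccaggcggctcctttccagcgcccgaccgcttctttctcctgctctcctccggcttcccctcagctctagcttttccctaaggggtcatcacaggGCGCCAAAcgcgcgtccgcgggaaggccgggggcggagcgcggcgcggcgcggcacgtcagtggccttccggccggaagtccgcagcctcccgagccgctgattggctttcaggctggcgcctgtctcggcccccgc
RFC3, chr13:33817899-33818148, plus strand: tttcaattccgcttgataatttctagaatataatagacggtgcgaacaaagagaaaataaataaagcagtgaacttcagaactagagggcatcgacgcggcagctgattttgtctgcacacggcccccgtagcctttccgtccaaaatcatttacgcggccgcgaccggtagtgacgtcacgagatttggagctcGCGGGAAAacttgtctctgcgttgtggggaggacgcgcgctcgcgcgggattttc
POLE, chr12:132687343-132687592, minus strand: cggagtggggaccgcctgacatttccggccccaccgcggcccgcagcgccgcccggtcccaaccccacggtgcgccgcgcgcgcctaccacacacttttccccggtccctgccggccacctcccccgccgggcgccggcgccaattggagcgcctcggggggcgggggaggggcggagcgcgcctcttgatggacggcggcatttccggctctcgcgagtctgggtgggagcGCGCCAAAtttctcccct
SLBP, chr4:1712320-1712569, minus strand: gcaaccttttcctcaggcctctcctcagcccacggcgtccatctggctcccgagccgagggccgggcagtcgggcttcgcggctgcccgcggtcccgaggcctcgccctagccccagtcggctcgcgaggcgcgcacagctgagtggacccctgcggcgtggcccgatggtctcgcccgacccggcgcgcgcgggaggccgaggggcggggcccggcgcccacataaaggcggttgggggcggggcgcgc
E2F1, chr20:33686386-33686635, minus strand: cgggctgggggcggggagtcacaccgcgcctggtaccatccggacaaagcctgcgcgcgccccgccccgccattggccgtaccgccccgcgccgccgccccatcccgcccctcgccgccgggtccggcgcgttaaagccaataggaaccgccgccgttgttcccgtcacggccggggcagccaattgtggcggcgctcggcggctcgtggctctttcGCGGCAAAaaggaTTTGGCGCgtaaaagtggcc

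The promoter of MCM6 held the same 12-base stretch TTTGGCGCGAAA at 2 places, beginning 152 and 90 bases before the start, each made of overlapping matches on the 2 strands. POLA1 had 1 match beginning 137 bases before the start, RFC3 had 1 at 55 bases and POLE 1 at 18 bases. SLBP had none of these letters in the window. E2F1 had matches at 33 and 20 bases before the start. In the windows from 250 bases before to 50 bases after the start, 20 of the 37 replication genes with an entry held at least 1 E2F-type match, or 54.1%, against 3.99% of the 27305 genes of the promoter table, 3.31% of its 35116 windows and 6.41% of the 10084 tested genes that had an entry by symbol. The NF-Y-type sequence CCAAT, read on both strands, was found in 21 of the 37 genes, or 56.8%, against 39.7% of all genes of that table, 34.6% of its windows and 43.1% of the tested genes. The HNF4-type sequence CAAAGTCCA, read on both strands, was in 0 of the 37, against 0.472% of all genes of that table, 0.384% of its windows and 0.506% of the tested genes. This exact sequence is so rare that 0 of 37 genes cannot show a lack of it, and other forms were not searched. The median log2 fold change was -0.07 for the 20 genes with an E2F-type match and -0.07 for the 17 without. Of the called genes with an entry 4 of 5 held a match, and the exception was SLBP, which fell. A match of letters is a description and does not show that a factor binds there.

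**Figure D3:**
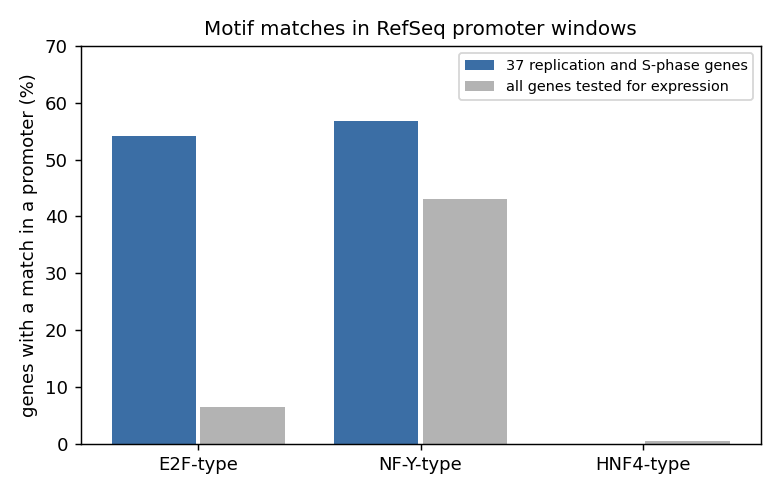
Bars give the percentage of genes with at least 1 match, on either strand, in a RefSeq promoter window, for the 37 replication genes with an entry (blue) and for all genes tested for expression with an entry (grey). The E2F-type bars stand at 54.1% and 6.41%, the NF-Y-type bars at 56.8% and 43.1%, and the HNF4-type bars at 0% and 0.506%. The HNF4-type sequence is too rare for 0 of 37 genes to show a lack of it.

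Among the 11 licensing genes, MCM6 and MCM4 fell and the other 9 were not called. The 2 are 18.2% of this group, near the 14.1% of all genes tested that were called. MCM6, a core helicase subunit, had 2884 and 2929 normalized counts in control and 2397 and 2290 in siHNF4A. Both knockdown libraries were below both controls, and the log2 fold change was -0.31 (standard error, SE, 0.07, adjusted p = 0.0129 in limma). MCM4, its partner subunit, had 4614 and 4451 in control and 4041 and 3760 in siHNF4A, again without overlap. Its log2 fold change of -0.22 (SE 0.06) was just past the threshold (adjusted p = 0.0484 in limma). The call of MCM4 was lost under 9 of the 14 alternative settings, among them each of the 4 that left out 1 library (adjusted p = 0.0511 to 0.278 in limma), whereas that of MCM6 was lost under 3, among them the one without siHNF4A replicate 2 (adjusted p = 0.0918 in limma).

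The 6 subunits of the MCM ring, MCM2 to MCM7, all had fitted fold changes below 0, from -0.31 for MCM6 to -0.07 for MCM2. Of all genes tested 51% were below 0. The 6 genes were read in the same 4 libraries, so their signs are not independent observations. Their fold changes were also below 0 under the 3 other scalings, with the value nearest to 0 at -0.03 (MCM2, upper-quartile and quantile). MCM7 had 5140 and 5160 normalized counts in control and 4662 and 4625 in siHNF4A. The groups were apart and the difference was -0.15, which was not past the threshold (adjusted p = 0.112 in limma). MCM3 had 4002 and 3900 in control and 3719 and 3720 in siHNF4A, also without overlap and not called. For MCM2 (4411 and 4673 in control, 4583 and 4070 in siHNF4A) and MCM5 (1159 and 1252 in control, 1170 and 1062 in siHNF4A) the groups overlapped. The fold change of MCM2 took the other sign, 0.01, without siHNF4A replicate 2.

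CDC6, CDT1 and GMNN, which act in loading the helicase, were not called. CDC6, which recruits the helicase to ORC, had 2063 and 2291 normalized counts in control and 2224 and 2311 in siHNF4A, and CDT1, its partner in loading, had 635 and 677 against 699 and 636. GMNN, the inhibitor of CDT1, had 1023 and 1016 in control and 972 and 1024 in siHNF4A. In these genes the libraries of both groups overlapped. ORC1 had a 95% interval of -0.23 to 0.16 on the log2 scale. ORC6 had 546 and 537 normalized counts in control and 536 and 485 in siHNF4A, so its groups were separated by the difference between 537 and 536 alone. The signs of ORC1 and GMNN, which were not called, changed under 2 of the 3 other scalings.

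Of the 7 genes of helicase activation 0 passed the threshold in limma, and 1, MCM10, had an unadjusted p under 0.05, beside 14.1% and 28.9% of all genes tested. MCM10, a helicase-binding activator, had 1065 and 1146 normalized counts in control and 973 and 941 in siHNF4A, without overlap, a log2 fold change of -0.21 (adjusted p = 0.142 in limma). CDC7, the catalytic subunit of the origin-firing kinase, had 1297 and 1283 in control and 1271 and 1186 in siHNF4A. CDC45 had 309 and 317 in control, and 397 and 294 in siHNF4A, so the 2 knockdown libraries lay on either side of the controls.

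The 4 GINS subunits had fitted fold changes of either sign. GINS2 was higher in both knockdown libraries (387 and 410.5 normalized counts in control, 433 and 436 in siHNF4A; log2 fold change 0.12, not called), whereas GINS1 and GINS3 overlapped between groups, with log2 fold changes of -0.07 and 0.13. GINS4 differed more between the control libraries (257 and 470) than between the groups, with 269 and 309 in siHNF4A. This was the largest difference between control libraries among the 41 genes, 0.86 on the log2 scale. Its fold change was -0.70 and called without control replicate 1 (adjusted p = 0.0045 in limma) and 0.16 without control replicate 2, so the value of GINS4 depends on which control is used.

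The polymerases held the largest fall and the largest rise of the list. POLA1, the catalytic subunit of polymerase alpha, had 1125 and 1120 normalized counts in control and 785 and 815 in siHNF4A. Both knockdown libraries were below both controls and the mean fell to 71.3% of control, a log2 fold change of -0.49 (SE 0.08, adjusted p = 0.00516 in limma). POLE, the catalytic subunit of polymerase epsilon, had 2746 and 2432 in control and 3856 and 3517 in siHNF4A. Its mean rose to 142% of control, a log2 fold change of 0.51 (SE 0.08, adjusted p = 0.00309 in limma). Both genes were also called under 13 of the 14 alternatives, and not in the fit without a variance trend, in which 0 of all genes tested were called (3524 at an unadjusted p under 0.05).

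The partners of these 2 enzymes were not called. POLA2, the accessory subunit of polymerase alpha, had 1444 and 1462 normalized counts in control and 1505 and 1490 in siHNF4A, with a 95% interval of -0.12 to 0.21 on the log2 scale. The primase subunits, which bind the same complex, were not called: PRIM1 had 238 and 259 in control and 256 and 240 in siHNF4A, and PRIM2, the regulatory subunit, had 514 and 508 against 439 and 476. POLE2, the second subunit of polymerase epsilon, had 283 and 289 in control and 284 and 205 in siHNF4A, so 1 knockdown library matched the controls and the other was lower. POLD1, the catalytic subunit of polymerase delta, had 826 and 829 in control and 855 and 727 in siHNF4A. PRIM1, which was not called, took the other sign under 2 of the 3 other scalings.

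Ratios within a library, which do not depend on library scaling, were then taken for 8 pairs of partner genes chosen after their values were seen. A lack of overlap between the groups, found in 8 of the 8, therefore reflects that choice and supports nothing, and 4 pairs are given here and below. POLE to POLE2 was 9.70 and 8.41 in control and 13.6 and 17.2 in siHNF4A. POLA1 to POLA2 was 0.779 and 0.766 in control and 0.522 and 0.547 in siHNF4A. In each pair the knockdown libraries lay apart from the controls, in opposite directions for the 2 polymerases. A ratio shows unequal change of the 2 mRNAs and not which of them moved.

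**Figure D4:**
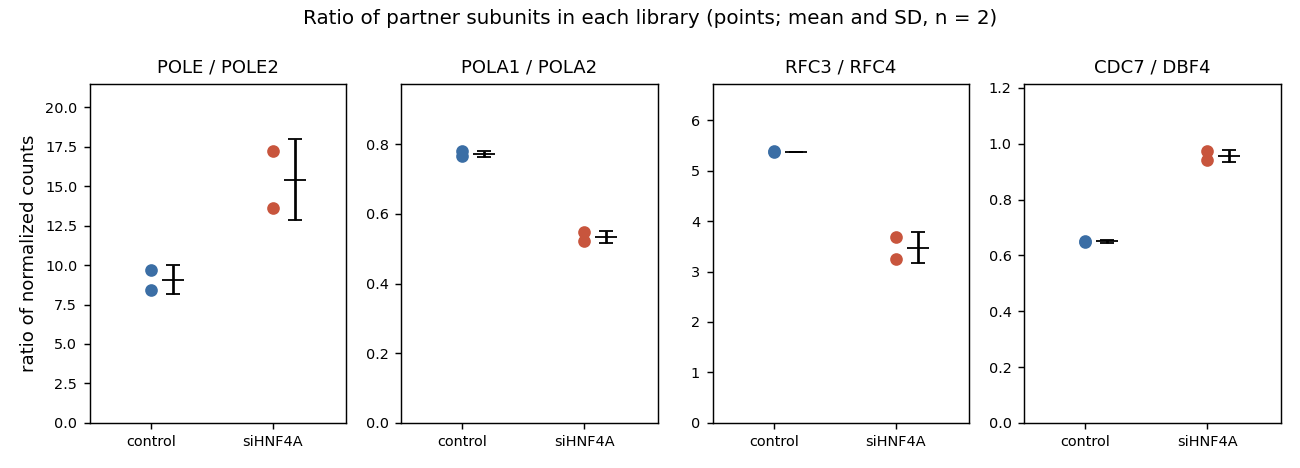
Points give the ratio of normalized counts of 2 partner genes in each library (blue, control; red, siHNF4A), and black marks the mean and SD (n = 2); each vertical axis starts at 0. POLE to POLE2 and CDC7 to DBF4 were higher in both knockdown libraries, and POLA1 to POLA2 and RFC3 to RFC4 were lower.

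RFC3, a small subunit of the clamp loader, fell. It had 2002 and 2011 normalized counts in control and 1496 and 1610 in siHNF4A, 77.4% of the control mean, a log2 fold change of -0.37 (SE 0.07, adjusted p = 0.00992 in limma). RFC4, another small subunit, was higher in both knockdown libraries (373 and 374 in control, 461 and 437 in siHNF4A), and its log2 fold change of 0.26 was not past the threshold (adjusted p = 0.151 in limma). The ratio of RFC3 to RFC4 was accordingly 5.37 and 5.38 in control and 3.25 and 3.68 in siHNF4A. RFC2 was also higher in both knockdown libraries (948 and 937 in control, 996 and 1041 in siHNF4A) and RFC5 lower (1311 and 1173 in control, 1146 and 1172 in siHNF4A), neither of them called; the groups of RFC5 were separated by the difference between 1173 and 1172 alone. The call of RFC3 was lost without siHNF4A replicate 1 (adjusted p = 0.0728 in limma), without the filter on low values (0.0553) and without the variance trend (0.147).

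The clamp itself, PCNA, had 4062 and 4096 normalized counts in control and 3725 and 3610 in siHNF4A. The groups did not overlap and the log2 fold change was -0.15, with a 95% interval of -0.29 to -0.02 that excludes 0 before adjustment (adjusted p = 0.123 in limma). The flap endonuclease FEN1, which trims Okazaki fragments, had 2581 and 2632 in control and 2525 and 2490 in siHNF4A, lower by 0.06 on the log2 scale and not called. DNA ligase 1, LIG1, which seals them, had 574 and 611 in control and 584 and 614 in siHNF4A, with overlap.

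In the deoxynucleotide group the fitted changes of RRM2, TYMS and TK1 were below 0 and that of RRM1 above 0, without overlap between the groups in any of the 4 (57.0% of all genes tested had none). Of the 4, 0 were called, beside 14.1% of all genes tested (3 of 4 at an unadjusted p under 0.05 in limma, which 28.9% of all genes tested had). RRM2, the small subunit of ribonucleotide reductase, had 4006 and 3610 normalized counts in control and 3513 and 2733 in siHNF4A, a log2 fold change of -0.30 (adjusted p = 0.0987 in limma). It was called without control replicate 2 (adjusted p = 0.0221 in limma) and without siHNF4A replicate 1 (0.0155). RRM1, the large subunit, had 2515 and 2675 in control and 2808 and 2820 in siHNF4A, a log2 fold change of 0.12. Thymidylate synthase, TYMS, had 1808 and 1738 in control and 1564 and 1379 in siHNF4A (log2 fold change -0.27, adjusted p = 0.0584 in limma). It was called with a mean of at least 50 (adjusted p = 0.0409 in limma) and in the robust fit (0.0474). Thymidine kinase 1, TK1, had 1462 and 1455 in control and 1350 and 1215 in siHNF4A. In RRM2, TYMS and TK1 alike siHNF4A replicate 2 was the lowest of the 4 libraries.

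SLBP, which binds the stem-loop of replication-dependent histone mRNAs, had 2872 and 3000 normalized counts in control and 2409 and 2361 in siHNF4A. It fell to 81.2% of control, a log2 fold change of -0.30 (SE 0.07, adjusted p = 0.0149 in limma). Its call was lost without siHNF4A replicate 1 (adjusted p = 0.0633 in limma) and without siHNF4A replicate 2 (0.0888), as well as without the filter (0.0651) or the trend (0.170). NPAT, which activates histone gene transcription in S phase, had 615 and 807 in control and 795 and 923 in siHNF4A, overlapping between groups. It was called higher only without control replicate 2 among the alternatives (log2 fold change 0.48, adjusted p = 0.0144 in limma).

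The E-type cyclins, which activate CDK2 at the entry into S phase, were not called. CCNE1 had 275 and 298 normalized counts in control and 195 and 221 in siHNF4A, 72.7% of the control mean and without overlap. Its log2 fold change of -0.46 (SE 0.14) was not past the threshold (adjusted p = 0.0606 in limma). CCNE2, the other E-type cyclin, had 1372 and 1359 in control and 1391 and 1381 in siHNF4A, with a 95% interval of -0.14 to 0.19 on the log2 scale. E2F1, which activates many genes of the list, had 810 and 878 in control and 957 and 834 in siHNF4A, with overlap and a 95% interval of -0.14 to 0.31.

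Further genes of the replication machinery and of chromatin copying, 44 outside the 41, were read in the same fit. This list, like the 41 genes and the lists below, was chosen with earlier results of these data known. A share of called genes in any of these lists therefore supports nothing by itself. In this list 11 were called, 10 of them lower, which is 25% of the list beside 14.1% of all genes tested, and the median log2 fold change was -0.13. DBF4, the activating partner of CDC7, fell from 2008 and 1964 normalized counts to 1308 and 1262 (log2 fold change -0.63, adjusted p = 0.000747 in limma). The ratio of CDC7 to DBF4 was 0.646 and 0.653 in control and 0.972 and 0.940 in siHNF4A. ORC2, a core subunit of the origin recognition complex, fell by 0.55 on the log2 scale, from 2885 and 2715 to 1937 and 1874. SAMHD1, which degrades deoxynucleotides, fell by 0.45, from 1634 and 1644 to 1137 and 1257.

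DSCC1, of an alternative clamp loader, fell by 0.45 on the log2 scale and MCM8, a relative of the MCM ring subunits, by 0.38. DNA2, DCK, DUT, TICRR and UHRF1 were further called genes, named here although the rule for named genes stops at 6, and fell by 0.29, 0.34, 0.36, 0.30 and 0.38. The count of called genes was 6 without siHNF4A replicate 1 and 5 without siHNF4A replicate 2, settings in which 7.07% and 6.5% of all genes tested were called.

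Regulators around S-phase entry were read in the same way, in a list also chosen with earlier results known. Of 15 cyclins, kinases and inhibitors of this step 5 fell and 2 rose, 46.7% of the list beside 14.1% of all genes tested. The D-type cyclin CCND1 had 410.4 and 408 normalized counts in control and 175 and 99.1 in siHNF4A (log2 fold change -1.63, adjusted p = 0.00192 in limma). CCND2, another D-type cyclin, fell by 0.67 on the log2 scale, from 9988 and 9741 to 6473 and 5931. Their kinase CDK4 fell by 0.33, while CDK6, the other such kinase, rose by 0.36. The inhibitor CDKN1A fell by 0.67, from 817 and 997 to 581 and 551, and the inhibitor CDKN2C rose by 0.59, from 221 and 191 to 297 and 323. CCNA2, outside the limit of 6 named genes, fell by 0.26. There were 4 calls without siHNF4A replicate 1 and 4 without siHNF4A replicate 2, where 7.07% and 6.5% of all genes tested were called.

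In the E2F and RB family with its partners, which includes E2F1, 1 of 17 genes changed, 5.88% beside 14.1% of all genes tested. E2F5, one of the repressive E2F proteins, fell from 1217 and 1313 normalized counts to 699 and 792 (log2 fold change -0.76, adjusted p = 0.00105 in limma). The median over the family was -0.07, and there were 3 calls without control replicate 1 and 2 without siHNF4A replicate 1, where 15.7% and 7.07% of all genes tested were called. Of 29 mitosis genes 6 fell (KIF23, CDK1, FOXM1, AURKA, KIF20A and, beyond the limit of 6, MKI67) and BIRC5 rose, with a median of -0.11. The 7 called are 24.1% of the list, again beside 14.1%. Leaving out siHNF4A replicate 1 or siHNF4A replicate 2 gave 3 calls in the mitosis list, beside the same 7.07% and 6.5% of all genes tested. The difference between these lists and the 41 replication genes was not tested.

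**Figure D5:**
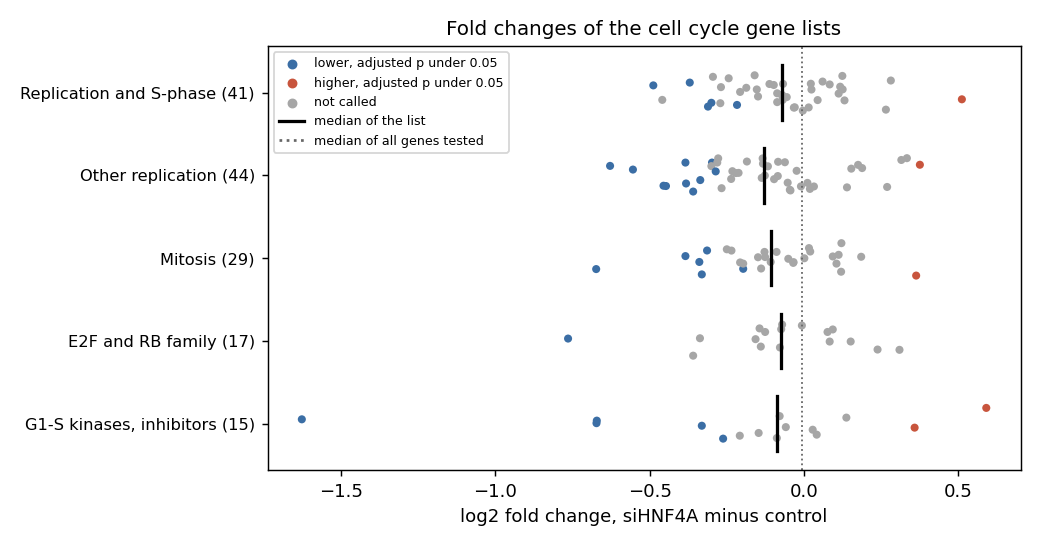
Each point is 1 gene, placed by its log2 fold change (siHNF4A minus control) and coloured where the adjusted p in limma was under 0.05 (blue, lower; red, higher); black bars are list medians and the dotted line is the median of all genes tested. The medians of the 5 lists lie between -0.13 and -0.07, and CCND1 is the point farthest to the left.

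Some of these values carry a limit of annotation. Among other overlaps in RefSeq, ORC1 overlaps PRPF38A, RFC5 overlaps WSB2, TYMS overlaps ENOSF1, CCNE2 overlaps INTS8 and NDUFAF6, GINS2 overlaps GSE1, PRIM2 overlaps RAB23 and MCM7 overlaps AP4M1 and 3 microRNA genes. PCNA, RRM2, TYMS, ORC1, RFC3, RFC5 and FEN1 have named pseudogene copies. Among the called genes POLE, MCM4, MCM6 and SLBP overlap no other RefSeq gene, POLA1 overlaps SCARNA23, EEF1B2P3 and LOC124905263, and RFC3 overlaps RNU5A-4P. Use of the strand in counting is not given in the sources used here, so values of overlapping genes and of genes with copies are uncertain to that extent.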

How the data were processed

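Expression came from 1 table of normalized counts per gene symbol, a signal the authors deposited for 4 RNA-seq libraries, 2 siHNF4A and 2 control. Per the submitters' processing notes the series used Trim Galore, Bowtie, Bowtie2, Picard and MACS2 with hg19, without stated roles; the counting program, annotation and normalization are not given in the sources used here. The series' text speaks of triplicates, and 2 libraries per group were analysed here. Separate cultures are not stated, so p-values measure a spread between libraries that may be technical. Values are fractional and whole reads were not recovered, so no count model was fitted and depth stayed unknown.

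Genes averaging 10 or more normalized counts entered a limma fit (version 3.58.1, R 4.3.3; lmFit, eBayes with trend) on log2(normalized count + 1), with Benjamini-Hochberg adjustment over all 15577 genes and a threshold of 0.05. That scale understates changes of low genes. The fit was tested on simulated data. The members and the other lists were chosen with earlier results of these data known. Named genes are HNF4A, all 41 replication genes and up to 6 called genes of each other list by smallest p. The values of 1 called gene among the other replication genes are not reported here. Alternatives were pseudocounts of 0.5 and 5, no filter or a mean of at least 50, 3 scalings (median ratio, upper quartile, quantile), no variance trend, a robust fit, a replicate block, and leaving out each library.

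Promoter windows (250 bases before to 50 after the start) and gene overlaps came from RefSeq tables of GRCh38.p14, matched by symbol. The motif shares over tested genes were added after the shares over the whole promoter table had been seen. All 41 genes matched the gene table and 37 the promoter table, which left MCM4, MCM5, GINS4 and CCNE2 without an entry. Peak positions are in hg19, for which no annotation was used here, so peaks were not placed at these genes.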

Additional observations from a re-analysis of the deposited data

How the results depend on the processing

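Without the variance trend the log2 fold change of HNF4A stayed at -1.97 but was no longer past the threshold (adjusted p = 0.0919 in limma), and 0 genes were called in every list, among 0 of all genes tested (3524 at an unadjusted p under 0.05, 7 of them replication genes). With no filter on low values 2 replication genes, 3 of the other replication genes, 2 mitosis genes and 3 of the kinases and inhibitors were called; this setting tested 30247 genes in place of 15577. Quantile normalization gave 2 calls in the E2F and RB family, beside 13.2% of all genes tested. The median log2 fold change of the 41 genes moved to -0.032 with upper-quartile rescaling and to -0.031 with quantile normalization, and that of all genes tested, -0.007 before, was 0.031 and -0.007 in these settings. The upper-quartile rescaling thus moved the median of all genes by 0.038. The cause of the other moves was not tested.

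Leaving out 1 library in turn gave 3 to 7 called replication genes, 5 to 12 of the other replication genes, 3 to 7 mitosis genes, 1 to 3 of the E2F and RB family and 4 to 7 of the kinases and inhibitors, in settings in which 6.5% to 15.7% of all genes tested were called. The median of the 41 genes lay between -0.090 and -0.042, the log2 fold change of HNF4A between -2.11 and -1.82, and 31 to 35 genes were without overlap, beside 76.9% to 80.3% of all genes tested in the same settings. E2F-type matches were in 15 of the 37 genes when only the bases before the start were searched.

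For single replication genes, 386 of 410 values from alternatives with all 4 libraries kept their side of the threshold and direction, 13 were weaker, 5 stronger and 6 of the other sign, none of the last 6 in a called gene; the signs that changed were those of GMNN (0.012 with quantile normalization, 0.009 with upper-quartile rescaling), ORC1 (0.020 and 0.006) and PRIM1 (0.011 with median-ratio and 0.034 with upper-quartile rescaling). With 1 library left out 137 of 164 values were kept, and fold changes of genes that were not called crossed 0: CDC45 ranged from -0.090 to 0.341, CDC6 from -0.015 to 0.136, CDT1 from -0.043 to 0.092, E2F1 from -0.016 to 0.182, GINS1 from -0.179 to 0.044, GINS3 from -0.062 to 0.324, GINS4 from -0.701 to 0.163, GMNN from -0.068 to 0.008, LIG1 from -0.030 to 0.061, MCM2 from -0.158 to 0.013, POLD1 from -0.186 to 0.047 and PRIM1 from -0.063 to 0.055.

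With the replicate block, where 15.6% of all genes tested were called, 9 replication genes were called, RRM2, TYMS and CCNE1 in addition to the 6 (adjusted p = 0.0164, 0.0423 and 0.0493 in limma). Deviations of same-numbered libraries had a Pearson r of -0.019 across 15577 genes and 0.056 across the 10918 with a mean of at least 100. The numbers were not taken as pairs, which these values cannot exclude.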

Other observations

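The median absolute difference between control replicates was 0.052 on the log2 scale for the 41 genes, against 0.140 for all genes tested, and 0.095 between the siHNF4A replicates, against 0.132. For the 29 mitosis genes it was 0.060 and 0.089. In siHNF4A replicate 2, 24 of the 41 replication genes and 21 of 29 mitosis genes were lower than in siHNF4A replicate 1, against 51.9% of all genes tested. The largest such difference among the replication genes was that of POLE2, -0.47 on the log2 scale. In control replicate 2, 15 of the 41 were lower than in control replicate 1, against 45.6% of all genes tested.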
